A study of Homo sapiens with 6 samples.

Results

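The mRNA levels of 10 integrin subunits, ITGA1, ITGA2, ITGA3, ITGA5, ITGA6, ITGAV, ITGB1, ITGB3, ITGB4 and ITGB5, were examined in Hep-G2 cells after knockdown of CLGN. The subunits were taken by gene name from a table of 58735 genes, and all 10 were found. Hep-G2 is a human hepatoma cell line, described in the labels as hepatocytes from HCC (hepatocellular carcinoma). The product of CLGN is calmegin, a relative of the endoplasmic reticulum chaperone calnexin. RNA was sequenced from 6 libraries of the same batch label. The 3 sh-NC libraries (genotype WT, treatment shcontrol) carried a control short hairpin RNA, and the 3 sh-CLGN libraries (genotype CLGN knock down, treatment shCLGN) carried a hairpin against CLGN. Both hairpins were delivered by lentivirus and the cells were selected with puromycin. Each group rested on 1 hairpin, so knockdown of CLGN cannot be told apart from any other effect of that hairpin. The labels do not say that the libraries came from separate cultures, so p-values measure the spread between these libraries, which may be technical.

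Integrins are receptors made of 1 alpha and 1 beta chain that span the cell membrane. They bind collagens, laminins, fibronectin or vitronectin outside the cell and connect them to actin or intermediate filaments inside it. The chains fold and pair in the endoplasmic reticulum, so the amount of mRNA does not give the amount of receptor at the surface. ITGB1 is the common beta chain, which pairs with ITGA1, ITGA2, ITGA3, ITGA5, ITGA6 and ITGAV. ITGAV also pairs with ITGB3, ITGB5, ITGB6 and ITGB8, and ITGA6 also pairs with ITGB4.

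The libraries held 14955816 to 16244639 reads on genes, and at least 1 read was found for 23578 to 23793 genes in each sh-NC library and for 26814 to 27006 in each sh-CLGN library. Levels are given in FPKM (fragments scaled by gene length and by a library size), which allows levels of different genes to be compared per length. The size behind the FPKM was 13951689 to 15473421 in sh-NC, under the reads on genes of each library. In sh-CLGN it was 16145674 to 16964772, over the reads on genes of each library. Levels in sh-CLGN thus stand lower against sh-NC than under scaling by read totals, which matters for small fold changes. CLGN itself was at 24.1, 21.0 and 26.1 FPKM in sh-NC and at 9.48, 8.88 and 8.60 FPKM in sh-CLGN. The mean fell to 37.8% of the control, with a log2 fold change of -1.31 ± 0.081 (SE, n = 3 per group, adjusted p = 8.3e-06). Hepatocyte markers were high in all 6 libraries. Their summed level was 7663 to 7842 FPKM in sh-NC, against 7792 to 8280 FPKM in sh-CLGN, and all 11 passed the filter on low values. Of these 4 rose and 5 fell, where 26.7% of all tested genes were called higher and 39.0% lower. In RNA from whole cultures, fewer cells of a kind and less RNA per cell cannot be told apart.

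Start regions of 3 subunits are shown, 1 that rose and 2 that fell, since these had the largest fold changes among the 7 subunits that could be tested on FPKM. Each covers 250 bases before and 50 bases after a start site in RefSeq (GRCh38.p14), 5′ to 3′ on the strand of the gene. Entries were found for 7 of the 10 subunits, 12 entries in all. ITGAV and ITGB5 had further entries, and the one nearest to the start of the longest coding transcript is shown. Capitals mark matches on either strand to 4 motifs that were searched, the GC box GGGCGG, the TATA box TATAAA, the AP-1 site TGAGTCA and the CRE TGACGTCA. No searched motif overlaps another in these 3 windows.
ITGAV, chr2:186589806-186590105, plus strand: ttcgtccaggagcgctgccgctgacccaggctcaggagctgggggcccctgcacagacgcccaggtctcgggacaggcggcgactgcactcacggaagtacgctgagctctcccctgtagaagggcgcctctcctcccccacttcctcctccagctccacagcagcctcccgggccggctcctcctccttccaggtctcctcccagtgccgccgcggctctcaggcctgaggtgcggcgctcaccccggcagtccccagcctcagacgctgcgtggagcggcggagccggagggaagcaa
ITGB5, chr3:124887316-124887615, minus strand: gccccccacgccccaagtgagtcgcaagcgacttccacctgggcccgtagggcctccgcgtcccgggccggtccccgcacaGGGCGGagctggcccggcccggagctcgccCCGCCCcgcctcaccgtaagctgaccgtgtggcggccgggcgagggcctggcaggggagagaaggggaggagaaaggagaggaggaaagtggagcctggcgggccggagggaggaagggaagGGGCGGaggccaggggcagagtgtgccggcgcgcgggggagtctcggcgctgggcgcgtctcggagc
ITGA5, chr12:54419217-54419516, minus strand: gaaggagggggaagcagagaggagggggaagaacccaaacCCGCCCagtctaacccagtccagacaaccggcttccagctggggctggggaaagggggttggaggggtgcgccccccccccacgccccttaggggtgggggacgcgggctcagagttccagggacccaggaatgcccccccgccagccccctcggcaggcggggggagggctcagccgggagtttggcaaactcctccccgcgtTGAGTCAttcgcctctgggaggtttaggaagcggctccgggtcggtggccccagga
The ITGAV window held none of the 4 motifs. In the ITGB5 window 3 GC boxes were found, and in the ITGA5 window 1 GC box and 1 AP-1 site. The longest coding transcript of ITGA5 starts at -194 from the RefSeq start site of its window, so the AP-1 site lies after the start of that transcript. Of all 35116 start regions, 44.95% held a GC box, 11.5% a TATA box, 4.95% an AP-1 site and 1.85% a CRE. A match is a match of letters only, and no binding was measured here.

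The 3′ untranslated regions of the subunits were also searched for the 7-base sites that pair with positions 2 to 8 (TACCACA) and 3 to 9 (ATACCAC) of the guide strand of the sh-CLGN hairpin, taken as the reverse complement of its target. ITGA2 was the only subunit of the 10 with such a site, in which the 2 sites overlap, in the transcript ITGA2-201 at chr5:53094710-53094716 on the plus strand of GRCh38.
ITGA2, site TACCACA with 11 bases on each side: cacttttttcaTACCACAttattgaatat
Among the 10880 genes tested for which a 3′ untranslated region is annotated, 9.75% held TACCACA, 7.33% held ATACCAC and 13.5% held either. The part of this site in the level of ITGA2 was not tested.

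The subunits fell into 4 ranges of expression. ITGB1 stood at the top with means of 109 FPKM in sh-NC, against 95.3 FPKM in sh-CLGN, 4 subunits (ITGA6, ITGB5, ITGAV and ITGA5) lay between 12.9 and 47.8 FPKM, and ITGA2 and ITGA1 lay between 3.88 and 6.44 FPKM. ITGB4, ITGB3 and ITGA3 stayed under 1 FPKM in every library. In sh-NC the order was ITGB1, ITGA6, ITGB5, ITGAV, ITGA5, ITGA2, ITGA1, ITGB4, ITGB3 and ITGA3. Neighbours whose libraries overlapped were ITGB5 with ITGAV and ITGB3 with ITGA3. In sh-CLGN, ITGAV moved from rank 4 to rank 2, ITGA6 from 2 to 3 and ITGB5 from 3 to 4, and the other 7 kept their ranks. There only ITGB3 and ITGA3 overlapped.

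**Figure D1:**
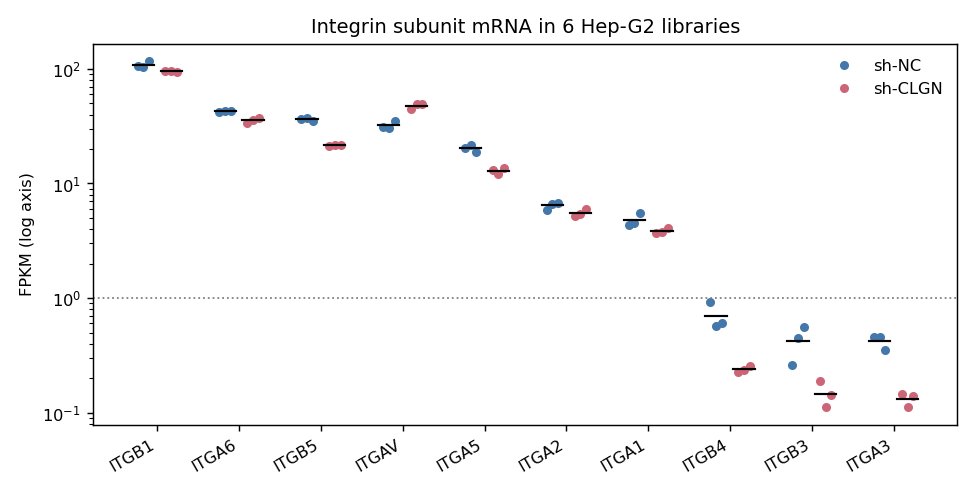
FPKM of the 10 integrin subunits on a log axis, 3 sh-NC and 3 sh-CLGN libraries each as points with the group mean as a bar. The dotted line marks 1 FPKM. ITGAV was higher in each sh-CLGN library than in any sh-NC library, the points of ITGA2 overlap, and the other 8 subunits lie lower in sh-CLGN.

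Change was tested with limma on log2(FPKM + 1) for genes that reached 1 FPKM in 3 libraries or more, which 7 of the 10 subunits and 13074 of all genes passed. Over all tested genes 65.8% passed an adjusted p of 0.05, 26.7% higher and 39.0% lower in sh-CLGN, and the median log2 fold change was -0.08. Of the 7 tested subunits, 1 rose (ITGAV), 5 fell (ITGB5, ITGA5, ITGA6, ITGA1 and ITGB1, of which ITGA6 and ITGB1 turned to above 0 under quantile normalization and ITGB1 also under scaling by read totals) and ITGA2 did not pass. With so many genes called, a call alone says little about integrins. None of the 7 reached an absolute log2 fold change of 1 in addition, as 6.28% of all tested genes did (3.09% higher and 3.19% lower). The libraries of the groups did not overlap for 6 of the 7, 1 higher and 5 lower, and for 70.2% of all tested genes, 28.7% higher and 41.5% lower.

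Among the receptors for fibronectin and vitronectin, the alpha chains moved in opposite directions. ITGAV (chr2:186590065-186680901), the alpha chain of vitronectin receptors and of receptors that free TGF-beta from its latent form, was at 31.4, 30.7 and 35.0 FPKM in sh-NC and at 44.9, 49.1 and 49.5 FPKM in sh-CLGN. Every sh-CLGN library lay above every sh-NC library. The mean rose 1.48-fold from 32.4 ± 2.33 to 47.8 ± 2.59 FPKM (SD, n = 3), with a log2 fold change of 0.55 ± 0.066 (SE, adjusted p = 0.000192). This placed ITGAV at percentile 87.8 among the log2 fold changes of all tested genes.

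ITGA5 (chr12:54395261-54419460), which with ITGB1 forms the classical fibronectin receptor, was at 20.3, 21.6 and 18.9 FPKM in sh-NC and at 13.1, 12.2 and 13.5 FPKM in sh-CLGN. The groups did not overlap. Its log2 fold change was -0.61 ± 0.066 (SE, adjusted p = 0.00011), to 63.9% of the control mean, at percentile 12.6 of all tested genes. The within-library log2 ratio of ITGA5 to ITGAV was -0.63, -0.50 and -0.89 in sh-NC, against -1.77, -2.01 and -1.87 in sh-CLGN. The difference of -1.21 had an exact two-sided permutation p of 0.1, the smallest that 3 against 3 libraries can give (0.167 adjusted over the 5 ratios).

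ITGB5 (chr3:124761948-124901418), a beta chain that pairs with ITGAV in a vitronectin receptor, fell most of the 7 tested subunits. Its level was 36.3, 37.4 and 35.0 FPKM in sh-NC, against 21.1, 21.7 and 21.9 FPKM in sh-CLGN. The spread within each group was small beside the distance between them. The mean fell to 59.5% of the control, with a log2 fold change of -0.72 ± 0.047 (SE, adjusted p = 1.02e-05), at percentile 8.63.

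ITGB3 (chr17:47253846-47311816), the other vitronectin receptor beta chain, known best from platelets and bone-resorbing cells, was at 0.261, 0.452 and 0.559 FPKM in sh-NC and at 0.188, 0.111 and 0.141 FPKM in sh-CLGN. These values rest on 16 to 38 reads per library in sh-NC, against 8 to 14 in sh-CLGN. ITGB3 did not pass the filter, and its groups did not overlap. The log2 ratio of ITGB3 to ITGB5 was -7.12, -6.37 and -5.97 in sh-NC, against -6.81, -7.61 and -7.28 in sh-CLGN, with overlapping groups (difference -0.75, exact permutation p = 0.2, adjusted 0.25). With a pseudocount of 1 the difference was 0.41.

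**Figure D2:**
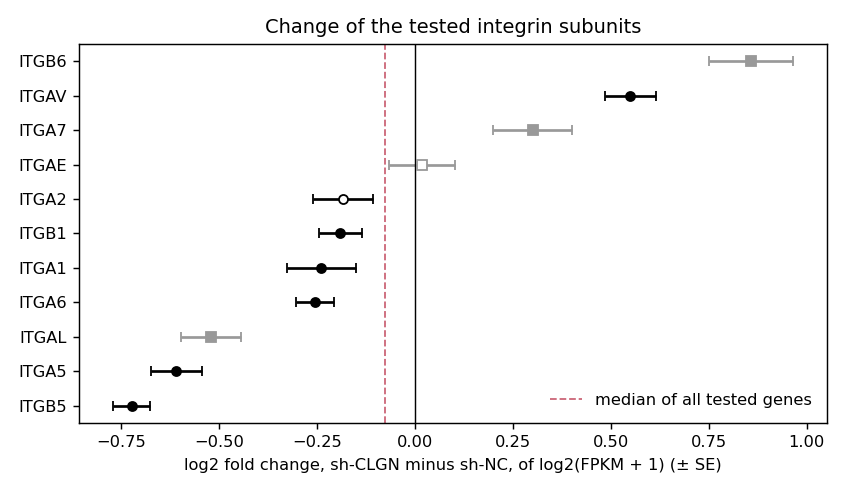
Log2 fold change of log2(FPKM + 1), sh-CLGN minus sh-NC, with its SE for the 7 tested subunits of the 10 (circles) and 4 other tested integrin subunits (squares), filled at an adjusted p of at most 0.05. The dashed line is the median of all tested genes, -0.08. ITGB5 (-0.72) and ITGA5 (-0.61) lie furthest below it, ITGB6 (0.86) and ITGAV (0.55) furthest above, and ITGB1 and ITGA6 (both above 0 under quantile normalization, ITGB1 also under read totals) lie near it. ITGB6 and ITGA7 passed the filter only through the sh-CLGN libraries, so their filled symbols carry no weight.

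ITGB1 (chr10:32900319-33005792), the shared beta chain, was at 106, 104 and 117 FPKM in sh-NC and at 95.8, 96.4 and 93.6 FPKM in sh-CLGN. The groups did not overlap, and the log2 fold change of -0.19 ± 0.055 (SE, adjusted p = 0.0157) stood at percentile 40.9, close to the middle of all tested genes. Its direction depended on the scaling, with 0.12 (adjusted p = 0.101) under quantile normalization and 0.00 under read totals. Without the third sh-CLGN library its adjusted p was 0.0517.

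Receptors for laminin were led by ITGA6 (chr2:172427354-172506282), which pairs with ITGB1 or with ITGB4. Its level was 41.9, 42.7 and 43.1 FPKM in sh-NC, against 34.0, 35.7 and 36.9 FPKM in sh-CLGN. All sh-CLGN libraries lay lower, with a log2 fold change of -0.25 ± 0.048 (SE, adjusted p = 0.00207) at percentile 35.4, which turned to 0.03 under quantile normalization (adjusted p = 0.676) and did not pass under TPM (-0.13, 0.079) or read totals (-0.064, 0.274).

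ITGA3 (chr17:50055968-50090481), another laminin-binding alpha chain of epithelia, was at 0.461, 0.454 and 0.349 FPKM in sh-NC and at 0.144, 0.112 and 0.139 FPKM in sh-CLGN. ITGB4 (chr17:75721328-75757818), the beta chain of hemidesmosomes, which anchor epithelial cells to laminin through keratin filaments, was at 0.922, 0.567 and 0.602 FPKM in sh-NC and at 0.227, 0.235 and 0.257 FPKM in sh-CLGN. Neither passed the filter and neither overlapped between groups. Reads per library were 53 to 65 against 18 to 24 for ITGA3 and 56 to 87 against 26 to 28 for ITGB4.

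A fit of the recovered reads (voom) on genes with at least 10 reads, chosen after seeing the data, tested all 10 subunits among 22042 genes, of which 11347 (51.5%) passed, 25.4% lower and 26.1% higher. There the log2 fold change was -1.65 ± 0.256 for ITGA3 (adjusted p = 6.11e-06), -1.49 ± 0.251 for ITGB4 (adjusted p = 1.83e-05) and -1.47 ± 0.383 for ITGB3 (adjusted p = 0.0023). These were the largest falls of the 10. ITGB4 overlaps GALK1, a gene on the opposite strand with means of 15.7 and 11.8 FPKM, and whether reads were counted by strand is not given in the sources used here, so its value is uncertain. In this fit 9 of the 10 were lower and 1, ITGAV, was higher. Planned fits of log2(FPKM + 1) that also tested all 10 called fewer of them lower. With no filter 6 were called lower and 1 higher, where 9246 of 33474 genes were called. With a mean of at least 0.1 FPKM 7 were called lower and 1 higher, where 9720 of 22534 genes were called.

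Relative to a more abundant chain of the same class, ITGA3 and ITGB4 were lower in sh-CLGN. The log2 ratio of ITGA3 to ITGA6 was -6.51, -6.56 and -6.95 in sh-NC, against -7.88, -8.32 and -8.05 in sh-CLGN (difference -1.41, exact permutation p = 0.1, adjusted 0.167). That of ITGB4 to ITGB1 was -6.85, -7.51 and -7.60 in sh-NC, against -8.72, -8.68 and -8.51 in sh-CLGN (difference -1.32, exact permutation p = 0.1, adjusted 0.167). The groups of both ratios were apart.

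Of the collagen receptors ITGA1 fell and ITGA2 did not pass. ITGA1 (chr5:52787896-52959210), which binds basement membrane collagen, was at 4.34, 4.49 and 5.51 FPKM in sh-NC and at 3.73, 3.79 and 4.12 FPKM in sh-CLGN. The groups lay side by side without overlap, with a log2 fold change of -0.24 ± 0.088 (SE, adjusted p = 0.0421) at percentile 36.7. Its adjusted p was above 0.05 without the first sh-CLGN (0.115), the second sh-CLGN (0.108), the third sh-CLGN (0.0522) or the third sh-NC library (0.079), under TPM (0.25) and read totals (0.456), with no filter (0.107) and with a mean of at least 0.1 FPKM (0.0707). ITGA1 contains PELO on the same strand (12.4 and 10.8 FPKM), so reads of the overlap could be assigned to either.

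ITGA2 (chr5:52989326-53094779), which binds fibrillar collagen, was at 5.87, 6.67 and 6.78 FPKM in sh-NC and at 5.22, 5.40 and 6.04 FPKM in sh-CLGN. The groups overlapped, and the log2 fold change of -0.18 ± 0.076 (SE) had an adjusted p of 0.063 and stood at percentile 41.4. Without the first sh-NC or the third sh-CLGN library it passed (0.0313 and 0.0384). The log2 ratio of ITGA1 to ITGA2 was -0.44, -0.57 and -0.30 in sh-NC, against -0.48, -0.51 and -0.55 in sh-CLGN, a difference of -0.08 (exact permutation p = 0.5).

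**Figure D3:**
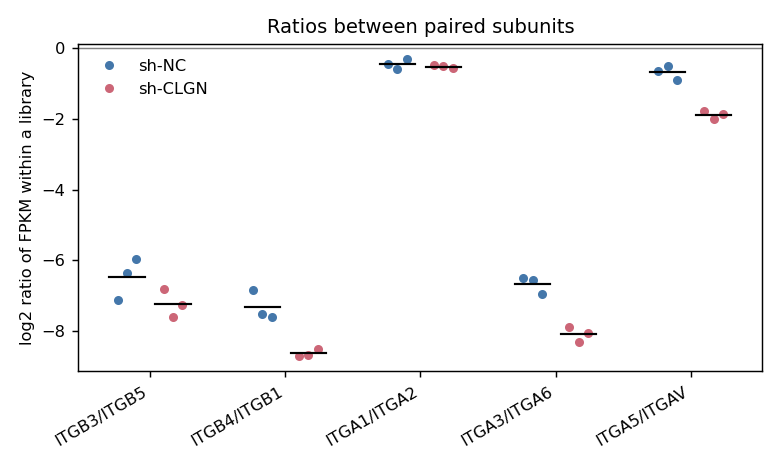
Log2 ratio of FPKM within each library for 5 pairs of subunits, points for libraries and bars for group means. The ratios ITGB4/ITGB1, ITGA3/ITGA6 and ITGA5/ITGAV are lower in every sh-CLGN library, by 1.32, 1.41 and 1.21 in the mean, while those of ITGB3/ITGB5 and ITGA1/ITGA2 overlap.

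Shares of each chain in the summed FPKM of its class do not depend on the scaling of a library. The 18 alpha genes summed to 113 to 119 FPKM in sh-NC, against 109 to 119 FPKM in sh-CLGN, and the groups overlapped (exact permutation p = 0.6). The 8 beta genes summed to 143 to 154 FPKM in sh-NC, against 118 to 120 FPKM in sh-CLGN (exact permutation p = 0.1, the smallest possible). Unlike the shares, both sums depend on the scaling. ITGB1, the largest part of the beta sum, had a log2 fold change of 0.0035 under read totals. The 10 subunits made up 92.1% to 93.2% of the alpha sum and 98.5% to 99.5% of the beta sum.

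ITGAV took 27.9%, 26.5% and 29.4% of the alpha sum in sh-NC, against 41.2%, 43.1% and 41.7% in sh-CLGN, and passed ITGA6 as the largest alpha share. ITGA6 took 37.1%, 36.9% and 36.2% in sh-NC, against 31.2%, 31.3% and 31.1% in sh-CLGN. ITGA5 took 17.99%, 18.7% and 15.9% in sh-NC, against 12.1%, 10.7% and 11.4% in sh-CLGN. The mean differences were 14.0, -5.55 and -6.15 percentage points in this order.

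On the beta side, ITGB1 took 73.5%, 72.6% and 76.0% in sh-NC, against 80.4%, 80.2% and 79.7% in sh-CLGN. ITGB5 took 25.1%, 26.1% and 22.8% in sh-NC, against 17.7%, 18.03% and 18.6% in sh-CLGN. With the GC correction the difference in the ITGB1 share was 2.21 in place of 6.09 percentage points, and that of ITGB5 -2.71 in place of -6.54. The shares of ITGB3 and ITGB4 stayed under 1% in every library. Each of the 10 shares had an exact two-sided permutation p of 0.1, also after adjustment over the 10, and the design allows no smaller value. Shares of a class are parts of 1 sum, so a larger share of 1 chain lowers the others. The 10 are thus not separate results.

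**Figure D4:**
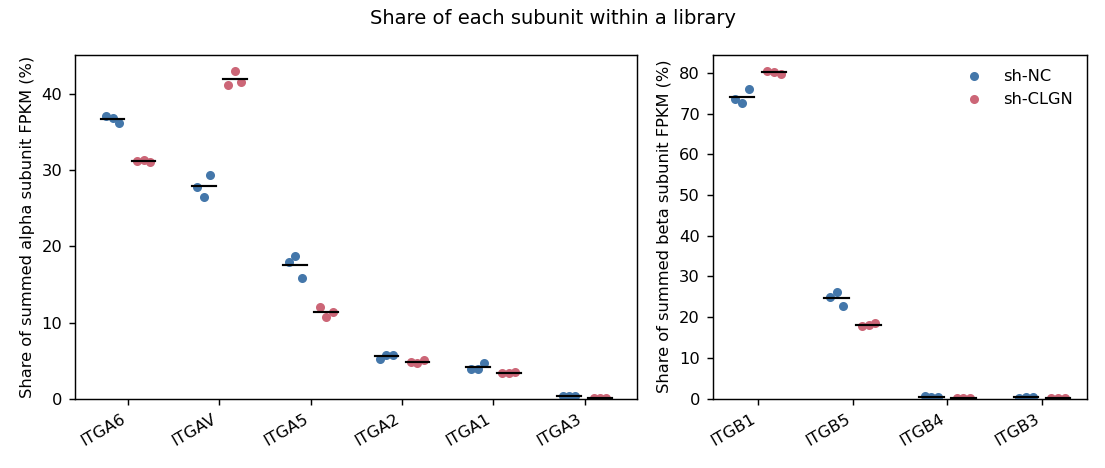
Share of each subunit in the summed FPKM of the 18 alpha genes (left) and the 8 beta genes (right), in percent, points for libraries and bars for group means. The share of ITGAV rose from a mean of 27.9% to 42.0% and that of ITGB1 from 74.0% to 80.1%. That of ITGB5 went from 24.7% to 18.1%, and the ITGB1 difference was 2.21 percentage points with the GC correction.

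The subunits also differed in base composition. ITGAV (38.3% GC in its longest transcript), ITGA1 (38.8%), ITGB1 (40.0%), ITGA2 (40.2%) and ITGA6 (42.9%) were poor in GC, and ITGB3 (52.3%), ITGB5 (54.3%), ITGA5 (54.5%), ITGA3 (61.3%) and ITGB4 (63.7%) were richer. The 5 of higher GC content were those with the 5 largest falls in the voom fit. After a trend on GC content was removed in each library, the log2 fold change was 0.37 for ITGAV, -0.51 for ITGB5 and -0.39 for ITGA5, and those of ITGB1 (-0.31), ITGA1 (-0.40), ITGA2 (-0.29) and ITGA6 (-0.28) were larger falls than before. The part of GC content in these differences was not tested further.

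Of the other 16 integrin subunits 4 passed the filter. ITGB6, a beta chain of epithelia under repair that pairs with ITGAV, was at 0.229, 0.190 and 0.083 FPKM in sh-NC and at 1.21, 1.13 and 1.00 FPKM in sh-CLGN, and its mean was 6.66-fold higher. It passed the filter only through the sh-CLGN libraries, so its call (log2 fold change 0.86, adjusted p = 0.000234) is given without weight. ITGA7, a laminin receptor of muscle, reached 1 FPKM in 2 of the sh-NC libraries and in 3 sh-CLGN libraries. Its call (log2 fold change 0.30, adjusted p = 0.0288) is thus given without weight too. The call was lost without the first sh-NC (0.0865), the second sh-CLGN (0.0527) or the third sh-CLGN library (0.105). It was also lost under quantile normalization (0.12, adjusted p = 0.329) and with no filter (0.085). ITGAL, the alpha chain of the leukocyte receptor for ICAM1, fell by 0.52 on the log2 scale (adjusted p = 0.000545), from 4.92 ± 0.171 to 3.14 ± 0.339 FPKM, while its beta partner ITGB2 was at most 0.081 FPKM in any library. ITGAE, which pairs with ITGB7, was at 2.69 and 2.74 FPKM (log2 fold change 0.02, adjusted p = 0.865). ITGA7 and ITGAE overlap other expressed genes, so their values are uncertain.

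Genes that work with integrins were described as lists, with no test of a list as a whole, and the share of all tested genes above (26.7% higher, 39.0% lower) is their background. Among the genes named from these lists, COL1A1 and LAMA3 reached 1 FPKM in 0 sh-NC libraries, ELMO1 in 1 and TNS1 in 2, while all 3 sh-CLGN libraries did, so their calls are given without weight. Of 23 tested ligands of 33, 11 were called higher (3 of these short of 1 FPKM in some sh-NC library) and 9 lower. In the voom fit on genes with 10 reads or more, 16 of 31 were higher and 10 lower. The background of that fit was 26.1% higher and 25.4% lower over its 22042 genes. COL1A2, a chain of type I collagen, rose by 2.94 on the log2 scale from 4.20 ± 0.561 to 38.7 ± 0.614 FPKM, and SPP1 (osteopontin) by 1.30, and COL1A1 had a log2 fold change of 1.69. ICAM1, bound by ITGAL with ITGB2, fell by 1.38 from 113 ± 5.13 to 42.5 ± 1.32 FPKM, the basement membrane protein NID1 fell by 1.10 and the laminin chain LAMC1 fell by 0.91. Of the ligands of ITGA5 and ITGAV, FN1 was at 377, 420 and 401 FPKM in sh-NC and at 246, 266 and 286 FPKM in sh-CLGN, and VTN (vitronectin) at 500, 488 and 449 FPKM and at 406, 396 and 399 FPKM. These 2 genes were chosen after their values were seen.

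COL1A1 is also a fibroblast marker. Of 10 fibroblast markers 4 were tested, and 3 of these, COL1A1, COL3A1 and LUM, passed only through sh-CLGN, so no count of calls is drawn from them. The other tested marker did not pass only through sh-CLGN and was called higher too. The summed level of the 10 markers was 3.30 to 3.76 FPKM in sh-NC, against 10.2 to 10.7 FPKM in sh-CLGN. POSTN and FAP were listed at 0 in every library, and DCN, THY1 and ACTA2 were at most 0.104 FPKM. Endothelial markers summed to 2.38 to 3.67 FPKM with KDR and ERG at 0 in all libraries, platelet markers to 0.709 to 1.82 FPKM with PPBP at 0, and leukocyte markers to 62.7 to 78.5 FPKM, nearly all of it LYZ (60.7 to 76.2 FPKM), with PTPRC at most 0.027 FPKM. Bile duct markers summed to 151 to 158 FPKM in sh-NC, against 109 to 114 FPKM in sh-CLGN, where SOX9 and EPCAM were lower and KRT19 higher.

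Inside the cell, 21 of 28 actin linkers and activators were tested. Of these 7 were called higher (1 of them short of 1 FPKM in some sh-NC library) and 4 lower (median 0.04), with up to 15 called higher under quantile normalization. The parvins, which join the kinase ILK to actin, went in opposite directions, PARVA by 1.12 and PARVB by -0.84 (PARVA from 1.44 ± 0.072 to 4.30 ± 0.026 FPKM). The actin crosslinker FLNA rose by 0.49, and TNS1 had a log2 fold change of 0.95. ZYX, a protein of mature adhesions, fell by 0.88 and LIMS1, a partner of ILK and parvins, fell by 0.42. TLN1, the main talin that activates integrins, had a log2 fold change of 0.04 and VCL (vinculin) also of 0.04, neither passing (adjusted p = 0.528 and 0.561, 2 genes chosen after their values were seen).

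Of 24 adhesion signalling genes 22 were tested, 5 were called higher (1 of these short of 1 FPKM in some sh-NC library) and 9 lower (median -0.09). CRKL, an adaptor behind focal adhesions, fell by 1.01 from 78.6 ± 2.05 to 38.6 ± 1.3 FPKM, the kinase SRC fell by 0.84 and the GTPase-activating protein ARHGAP35 fell by 0.78. PTK2B, a relative of focal adhesion kinase, rose by 0.49 and GIT2 by 0.36, and ELMO1 had a log2 fold change of 0.39. The 4 genes listed as integrin inhibitors or their regulators (ITGB1BP1, SHARPIN, DOK1 and KRIT1) were all tested, and DOK1 (-0.62) and SHARPIN (-0.47) fell.

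Membrane partners were tested for 15 of 17 genes, of which 7 were called higher (1 of these short of 1 FPKM in some sh-NC library) and 4 lower (median 0.09). CAV1 (caveolin) rose by 1.31, SLC3A2, the heavy chain of CD98 that binds beta tails, rose by 0.87 from 117 ± 8.57 to 215 ± 2.34 FPKM, and the syndecan SDC2 rose by 0.75. SDC4, the syndecan that acts with ITGA5 and ITGB1 on fibronectin, fell by 1.31 from 204 ± 4.28 to 81.4 ± 2.24 FPKM, and the tetraspanins CD9 and CD81 fell by 1.08 and 0.72.

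For hemidesmosome genes, 5 of 7 were tested and 3 were called higher (2 of these short of 1 FPKM in some sh-NC library). Among the 3, DST rose by 1.30 and the laminin chain LAMA3, which is a ligand too, had a log2 fold change of 0.82. The filter bears on this count, since LAMA3 passed only through sh-CLGN and LAMB3, its partner chain, was left out after going from 1.33, 1.10 and 0.882 FPKM in sh-NC to 0.440, 0.390 and 0.608 FPKM in sh-CLGN. The voom fit on genes with 10 reads or more held all 7, 4 higher and 1, LAMB3, lower (LAMB3 was chosen after its values were seen). Over all genes of that fit 26.1% were higher and 25.4% lower. Of 20 trafficking genes 19 were tested, 8 rose and 5 fell (median 0.13). DAB2, an endocytic adaptor, rose by 0.82, the retromer partner SNX27 by 0.67 and RAB5A by 0.57, while ARF6, a recycling GTPase, fell by 0.68, RAB5B by 0.30 and RAB11FIP1 by 0.21. RAB11FIP1 no longer passed without the second sh-NC, the first sh-CLGN or the second sh-CLGN library (-0.16, -0.19 and -0.22), and leaving out the second sh-NC, the first sh-CLGN or the third sh-CLGN library took the count of falls from 5 to 3.

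Genes that fold and mature integrins were tested for all 7 of 7, of which 5 fell and none rose (median -0.39). FURIN, a protease that cleaves the precursors of several alpha chains, ITGAV, ITGA5, ITGA3 and ITGA6 among them, was at 378, 378 and 330 FPKM in sh-NC and at 143, 151 and 160 FPKM in sh-CLGN. It fell by 1.25 on the log2 scale (SE 0.070, adjusted p = 5.7e-06), with no overlap. PCSK6, a related protease, fell by 0.92 from 16.7 ± 0.487 to 8.39 ± 0.259 FPKM, and the chaperone CANX (calnexin) fell by 0.53 from 157 ± 6.75 to 109 ± 1.64 FPKM.

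**Figure D5:**
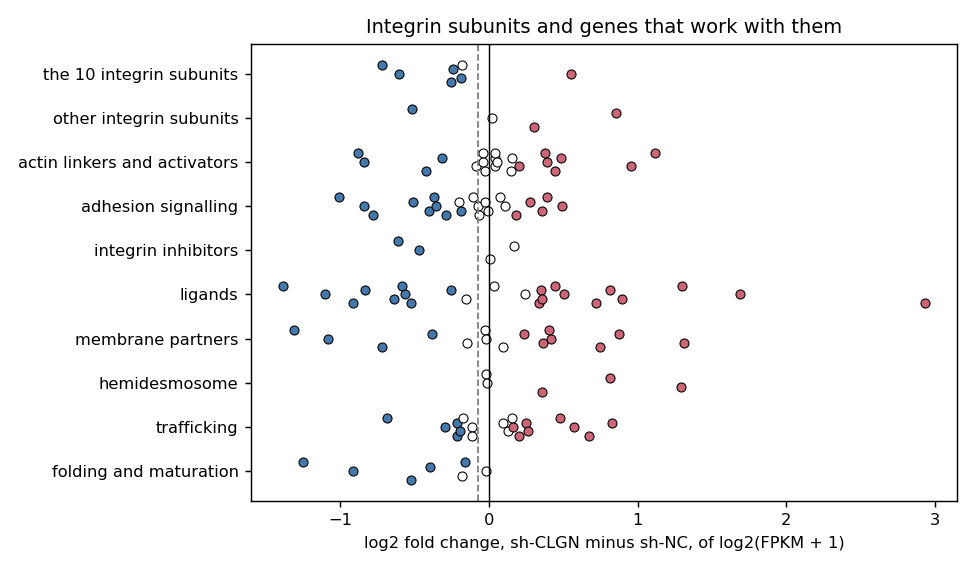
Log2 fold change of log2(FPKM + 1), sh-CLGN minus sh-NC, for each tested gene of the 10 integrin subunits and of the 9 lists of related genes, red for higher and blue for lower at an adjusted p of at most 0.05, white for genes that did not pass. The dashed line is the median of all tested genes, -0.08. Of the 7 tested subunits among the 10, 1 is red and 5 are blue, ITGA6 and ITGB1 being above 0 under quantile normalization and ITGB1 also under read totals, and of 7 folding and maturation genes 5 are blue.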

How the data were processed

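The data are RNA-seq of Hep-G2 cells in 6 libraries (sh-NC, n = 3, and sh-CLGN, n = 3). Values were deposited by the authors as FPKM, in a single table with gene lengths and positions. Their processing notes name HISAT2 2.0.5, featureCounts and GRCh38, with no role or option; all 58735 gene positions equalled GENCODE 29. FPKM times gene length gave whole reads for 100% of values (tolerance 0.01), and 14955816 to 16244639 reads per library were recovered.

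The comparison used limma 3.58.1 in R 4.3.3 (lmFit, eBayes with trend) on log2(FPKM + 1), for genes that reached 1 FPKM in 3 libraries or more, two-sided, with Benjamini-Hochberg adjustment over 13074 genes. Fold changes on this scale understate those of low genes. Shares and ratios of FPKM were compared by exact permutation (scipy 1.17.1). Alternatives were a pseudocount of 0.1, other filters, scalings, voom on recovered reads, a GC correction, a replicate block and leaving out each library. The fit was also run on simulated reads in which few or no genes changed, unlike these data, so no conclusion is drawn from that run.

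The members, the lists (9 of integrin-related genes and 6 of cell type markers) and tests were chosen with earlier results of these data known. Named were all 10 members, every other tested subunit, CLGN, and the 3 largest rises and falls of each list among genes passing an adjusted p of 0.05. One gene that this rule names is not reported here. Deviations of same-numbered libraries correlated at -0.02, -0.05 and -0.15, so numbers were not taken as pairs.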

Additional observations from a re-analysis of the deposited data

How the results depend on the processing

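ITGAV (0.37 to 0.83), ITGB5 (-0.75 to -0.45), ITGA5 (-0.65 to -0.39) and CLGN (-1.44 to -1.12) kept their direction and their side of the threshold under all 12 alternatives and with each of the 6 libraries left out. Median-ratio scaling, among these 12, returned the values of the main fit (8598 genes called in both). It therefore could not change a call and is no separate check. The median of all tested genes moved from -0.08 to 0.03 under TPM and to 0.08 under read totals, and calls of small size moved with it. Lower calls among the subunits numbered 2 under TPM, 3 under quantile normalization, 2 under read totals and 4 to 6 with 1 library left out. They numbered 6 with no filter, 7 with a mean of at least 0.1 FPKM and 9 with voom over all genes of 10 reads or more. These last settings each tested 3 more subunits, and that voom fit was added after seeing the data. Under TPM the values that no longer passed were ITGA1 -0.16, ITGA6 -0.13 and ITGB1 -0.064; under read totals ITGA1 -0.081 and ITGA6 -0.064 did not pass and ITGB1 turned to 0.0035; under quantile normalization ITGA6 turned to 0.027, ITGB1 to 0.12 and ITGAE to -0.0498. ITGA1 (-0.24) did not pass without a filter or with a mean of at least 0.1 FPKM. With 1 library left out ITGA1 was at -0.29 to -0.15, ITGA2 at -0.24 to -0.15, ITGB1 at -0.22 to -0.14 and ITGAE at -0.039 to 0.077. ITGA2 passed at -0.22 with voom, -0.22 with voom over the larger gene set and -0.29 with the GC correction. Genes past both thresholds numbered 821, and 1606 with a pseudocount of 0.1, 1426 under TPM, 1722 with voom and 3845 with voom over the larger gene set. With the GC correction the share differences were 10.7 for ITGAV, -3.66 for ITGA5, -1.04 for ITGA1, -0.968 for ITGA2, -0.199 for ITGA3, 2.21 for ITGB1 and -2.71 percentage points for ITGB5, and the ratio differences -0.91 for ITGB4/ITGB1, -1.12 for ITGA3/ITGA6 and -0.82 for ITGA5/ITGAV. With longest coding transcript lengths, a setting that was not planned, the share differences were -7.64 for ITGA5, -0.422 for ITGA2, -0.38 for ITGA3 and -4.16 percentage points for ITGA6. With recovered reads the share differences were -1.77 for ITGA1, -0.316 for ITGA3 and -4.91 percentage points for ITGA6. A pseudocount of 1 gave ratio differences of 0.41 for ITGB3/ITGB5, -0.26 for ITGB4/ITGB1 and -0.074 for ITGA3/ITGA6, since these chains lie under 1 FPKM. Of the list counts, those of actin linkers called higher went from 7 to 11 under TPM, 15 under quantile normalization, 14 under read totals and 12 with the GC correction, and those of trafficking genes called lower from 5 to 2, 1 and 1 under the first 3 of these and to 3 to 5 with 1 library left out. Hemidesmosome genes called lower went from 0 to 1 with no filter, with a mean of at least 0.1 FPKM and with voom over the larger gene set, and those called higher from 3 to 5 with the GC correction. Other integrin subunits called higher were 1 under quantile normalization, 4 with voom over the larger gene set and 1 to 2 with 1 library left out. Genes on the list of integrin inhibitors or their regulators called higher were 1 under TPM and 1 under read totals, in place of 0. Folding genes called higher were 2 under quantile normalization and 1 under read totals, in place of 0. What moved the other values listed was not tested.

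With the replicate number as a block, 8038 genes were called in place of 8598, and no call of the 7 tested subunits changed (ITGB1 adjusted p = 0.0428, ITGA1 0.0323, ITGA2 0.0552). Levels under 1 FPKM rest on few reads, 8 to 87 per library for ITGB3, ITGA3 and ITGB4, which limits their precision.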
